A study of Mus musculus with 18 samples.

Results

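The clade B serpins are the mouse genes whose symbols begin with Serpinb and a number, and 26 of the 19572 named probe sets on the arrays belonged to them, with 1 probe set for each of 26 genes. Membership was set by symbol alone, but the clade was chosen with earlier results of these data known. Serpinb6d was singled out among them and selected on its intensities in knockout and wild-type skin, so its skin values are described here without a test, and counts in comparisons that include skin arrays cover the 25 other members. Its 4 nearest relatives by name, Serpinb6a, Serpinb6b, Serpinb6c and Serpinb6e, are described beside it.

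Gene expression was measured on 18 Affymetrix Clariom S arrays, which hold gene-level probe sets for the mouse transcriptome. Skin and pituitary were each sampled from C57BL/6 wild-type mice, from mice that lack the long noncoding RNA MIR205HG (lncKO) and from mice that lack the microRNA miR-205 (miR-205 KO), with 3 arrays in each of the 6 groups. Arrays are named by their label number, which is 1 to 3 for wild type, 4 to 6 for lncKO and 7 to 9 for miR-205 KO in skin, and 10 to 12, 13 to 15 and 16 to 18 for the same genotypes in pituitary. The labels give an age of 5 to 6 weeks and female sex for all samples, mention an ear segment in the extraction text of both tissues, and name neither the construction of the alleles nor whether the arrays of a group came from separate animals. The p-values therefore rest on differences among these arrays alone, and that spread may be technical.

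The tissues carried their defining transcripts. The summed intensity of 13 measured genes of differentiated keratinocytes was 637484 to 1151131 in skin and 235 to 277 in pituitary, and that of 10 genes of anterior pituitary endocrine cells was 3048788 to 3814333 in pituitary and 147 to 2764 in skin, with the 2764 in wild type 1. The female label was not matched in pituitary, where the Y-linked gene Uty read 1869 to 2339 in all 9 arrays, against 6 to 13 in skin. Comparisons between the tissues thus also differ in Y-linked expression, and tissue and the sex of the animals cannot be told apart in them. An intensity of 16 or less, here called near background, was found for 22.8% to 25.3% of probe sets, depending on the array. Since these are pieces of whole tissue, fewer cells of a type and less RNA per cell cannot be told apart.

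Serpins are protease inhibitors that act once: the protease cuts an exposed reactive centre loop, the serpin snaps into a new fold, and both proteins remain locked together. Clade B serpins, also called ov-serpins, lack a classical secretion signal, and most work inside the cell, where they restrain proteases that escape from granules or lysosomes. Several are characteristic of stratified epithelium such as the epidermis. In the mouse the clade has expanded by local gene duplication. In the RefSeq order of the genes on the arrays, its members stood in 2 uninterrupted runs, 11 on chromosome 1 and 15 on chromosome 13. Genes without a named probe set were left out of that order. Serpinb6d lay in the second run, followed by Serpinb6e, Serpinb6c and Serpinb6a.

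Of the members with a RefSeq promoter (24 of 26), Serpinb6e was the one whose 250 bases before the transcription start aligned with those of Serpinb6d at the highest score, and both sequences are shown to compare these neighbours. They are printed 5′ to 3′ in the direction of transcription, from GRCm38.p6, with capitals for aligned stretches of at least 10 identical bases. Serpinb6d is at chr13:33661155-33661404 on the plus strand and Serpinb6e at chr13:33843409-33843658 on the minus strand.
Serpinb6d: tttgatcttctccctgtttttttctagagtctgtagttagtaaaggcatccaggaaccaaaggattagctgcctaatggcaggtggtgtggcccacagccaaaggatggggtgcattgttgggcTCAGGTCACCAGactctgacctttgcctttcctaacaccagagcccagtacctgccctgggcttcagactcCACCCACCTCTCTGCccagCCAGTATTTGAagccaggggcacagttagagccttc
Serpinb6e: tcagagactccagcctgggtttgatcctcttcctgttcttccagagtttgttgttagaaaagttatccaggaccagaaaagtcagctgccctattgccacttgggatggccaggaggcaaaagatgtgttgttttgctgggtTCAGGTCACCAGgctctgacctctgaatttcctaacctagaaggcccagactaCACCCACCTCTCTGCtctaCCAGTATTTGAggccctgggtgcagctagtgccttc
In the alignment, 184 of 228 paired bases were identical, or 80.7%. That share was not the highest. It was 83.6% for Serpinb9f and 81.9% for Serpinb9d, but these paired only 116 and 127 bases. For 1 listed start of Serpinb12 it was 100%, over 2 paired bases. The alignment score of Serpinb6e was 114.0, against 37.5 for the next member, Serpinb6a. Each window held AGGTCA, the hexamer that many nuclear receptors recognise, 2 times when both strands were searched, and 1.36% of 32817 mouse promoter windows of that length did so. In both, the copies faced each other as AGGTCANNNNNNNNTGACCT, which 3 of the 32817 windows held. The printed windows of Serpinb6d and Serpinb6e were among those 3. This arrangement was looked for after the sequences had been read, and it is a description of letters, not of a bound factor. Neither window held the TATA box TATAAA, found in 12.4% of all windows. The CCAAT box, found in 33.8%, was absent from both windows, as was the AP-1 motif TGANTCA, found in 6.75%. The microRNA missing from the miR-205 KO mice is printed to show its seed, bases 2 to 8, in capitals. The 22 printed bases of the mature microRNA are at chr1:193507503-193507524 on the minus strand of GRCm38.p6.
mmu-miR-205-5p: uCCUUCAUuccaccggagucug

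In skin, Serpinb6d read far higher in both knockouts than in wild type, and in pituitary it read 12 to 21 over the 9 arrays. It read 19135, 6036 and 15797 in wild type 1 to 3, 237037, 173212 and 208556 in lncKO 4 to 6, and 122815, 176820 and 64421 in miR-205 KO 7 to 9. All 6 knockout arrays lay above all 3 wild-type arrays, and the knockout groups overlapped each other. The mean log2 intensity was 13.58 ± 0.89 in wild type, 17.64 ± 0.23 in lncKO and 16.77 ± 0.74 in miR-205 KO (SD, n = 3 each). The differences from wild type were 4.07 ± 0.42 and 3.19 ± 0.42 on the log2 scale (SE), or 16.7-fold and 9.15-fold. Both knockouts were set against the same wild-type arrays, of which wild type 2 was the lowest. Without it the differences were 3.56 and 2.69.

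Serpinb6d was selected on its skin intensities with earlier results of these data known, and its pituitary values were tested. They were 12, 14 and 21 in wild type, 17, 12 and 13 in lncKO and 18, 20 and 21 in miR-205 KO. The wild-type and lncKO arrays lay on both sides of 16, and the miR-205 KO arrays were a few units above it. Against wild type the log2 difference was -0.14 ± 0.22 in lncKO (limma, adjusted p = 0.859) and 0.37 ± 0.22 in miR-205 KO (adjusted p = 0.777). The lncKO and miR-205 KO arrays did not overlap, at a difference of -0.50 ± 0.22, which missed the threshold after adjustment (0.431).

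**Figure D1:**
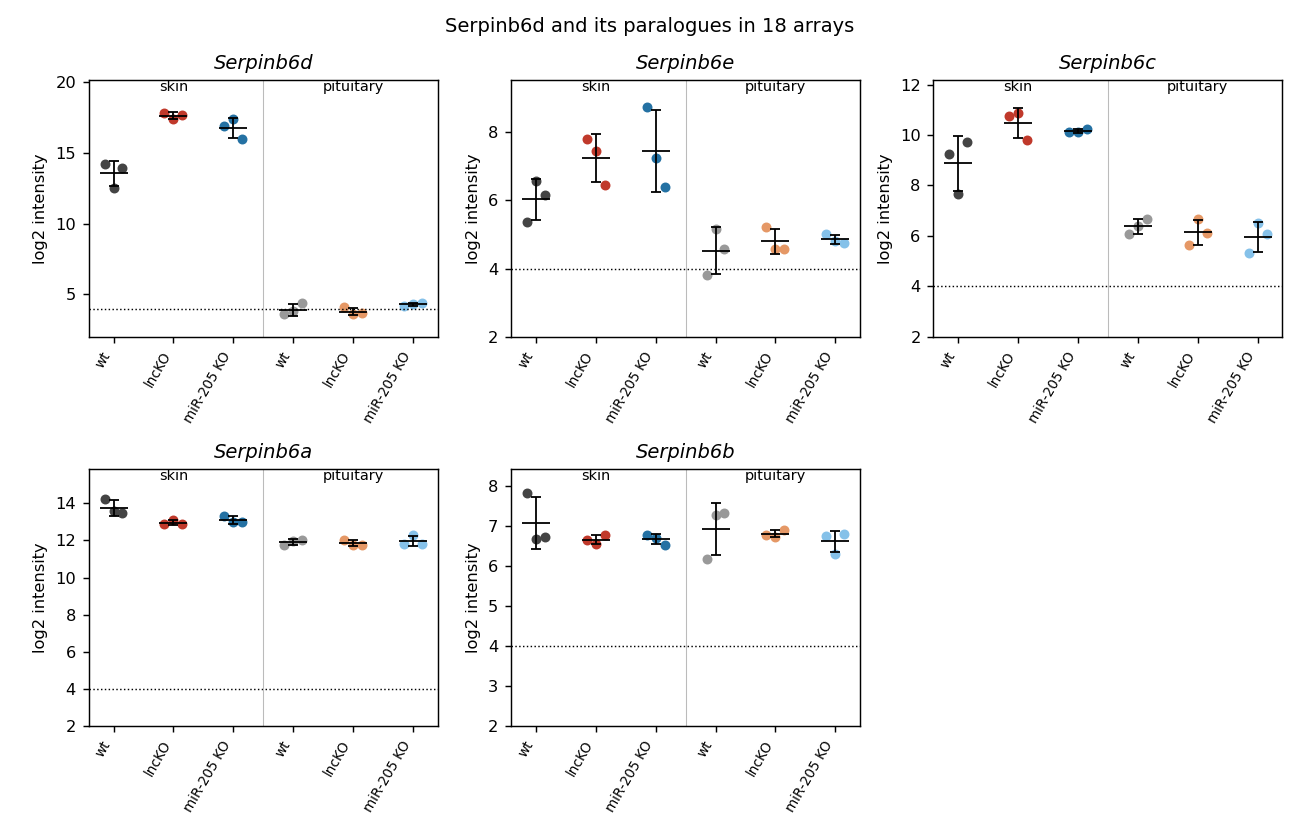
Log2 intensity of Serpinb6d, Serpinb6e, Serpinb6c, Serpinb6a and Serpinb6b by tissue and genotype. Points are arrays, horizontal bars are means with the SD (n = 3), the dotted line marks log2 4 (an intensity of 16), and each panel has its own scale. Serpinb6d has means of 13.58, 17.64 and 16.77 in wild-type, lncKO and miR-205 KO skin and stays near the dotted line in pituitary, while Serpinb6a has means of 13.75, 12.97 and 13.10 in the same skin groups.

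The paralogues of Serpinb6d did not share a single direction. Serpinb6c rose and Serpinb6a, an inhibitor of cathepsin G and related granule proteases, fell in lncKO skin, while Serpinb6b and Serpinb6e did not pass the test in either knockout. Serpinb6c read 602, 201 and 851 in wild type, 1716, 1868 and 895 in lncKO and 1118, 1107 and 1205 in miR-205 KO. Every knockout array was above every wild-type array. The rise in log2 intensity was 1.60 ± 0.44 in lncKO (limma, adjusted p = 0.0269), and the miR-205 KO value of 1.29 ± 0.44 missed the threshold (0.0610). Without wild type 2, again the lowest, the lncKO value was 0.99 (0.0691), and the call was also lost without lncKO 4 (0.0900) or lncKO 5 (0.0938). Serpinb6a read 19153, 12144 and 11352 in wild type, 7512, 8897 and 7664 in lncKO and 10261, 8101 and 8165 in miR-205 KO. Here each knockout array was below each wild-type array. It fell by 0.79 on the log2 scale in lncKO (SE 0.24, limma, adjusted p = 0.0430), and the difference in miR-205 KO was -0.65 ± 0.24 (0.0817). Leaving out any array of these groups except wild type 3 ended the lncKO call (0.0603 to 0.134).

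Serpinb6e, the neighbour whose promoter aligned at the highest score, read 41, 94 and 71 in wild type, 223, 173 and 87 in lncKO and 425, 150 and 83 in miR-205 KO. The highest wild-type array lay above the lowest array of each knockout. The log2 differences were 1.21 ± 0.52 and 1.42 ± 0.52 (limma, adjusted p = 0.135 and 0.0778), with 95% intervals of 0.08 to 2.33 and 0.30 to 2.55 before adjustment. Serpinb6b read 225, 102 and 105 in wild type, 100, 94 and 109 in lncKO and 110, 104 and 92 in miR-205 KO, so that only wild type 1 stood apart from the rest. Its differences were -0.41 ± 0.29 and -0.40 ± 0.29 (0.349 and 0.361). In pituitary Serpinb6a read 3410 to 4967, Serpinb6b 72 to 159, Serpinb6c 40 to 102 and Serpinb6e 14 to 37 over the 9 arrays, and none of them passed a genotype comparison. Whether probes of these related genes also bind each other's transcripts was not tested.

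Of the 25 other clade B serpins, 3 rose and 4 fell in lncKO skin. Serpinb5, Serpinb1b and Serpinb6c rose, and Serpinb8, Serpinb12, Serpinb9e and Serpinb6a fell. That is 12% higher and 16% lower, where 6.21% of all named probe sets were higher and 9.17% lower. The median log2 difference of the members was 0.02, against -0.07 over all probe sets. In miR-205 KO skin 3 rose and 3 fell, or 12% in each direction, against 6.79% and 10.0% of all probe sets. Serpinb5, Serpinb1b and Serpinb1c rose, and Serpinb12, Serpinb8 and Serpinb9e fell. The median of the members was -0.11, again against -0.07. The lists of both knockouts rest on the same wild-type arrays, so values are given side by side. By chromosome, 3 of 11 members on chromosome 1 and 4 of the 14 counted on chromosome 13 passed in lncKO, and 3 and 3 passed in miR-205 KO.

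**Figure D2:**
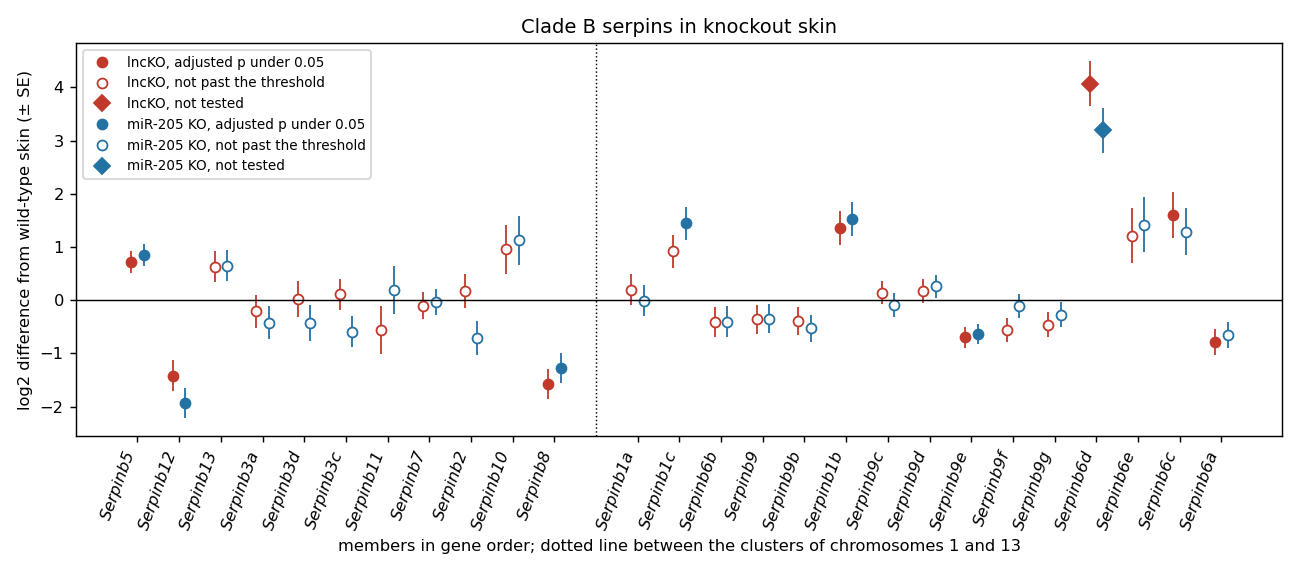
Log2 difference from wild-type skin of each member in lncKO (red) and miR-205 KO (blue) skin, with the SE from limma, in gene order along chromosome 1 (left of the dotted line) and chromosome 13. Filled circles are past an adjusted p of 0.05, open circles are not, and diamonds mark Serpinb6d, which was not tested. Serpinb6d stands at 4.07 and 3.19, and the other members lie between -1.93 and 1.60.

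Serpinb12 and Serpinb8 fell in both knockouts. Serpinb12, an inhibitor of trypsin-like serine proteases found in epithelia, read 18128, 8553 and 13518 in wild type, 6543, 4073 and 4133 in lncKO and 3468, 3202 and 3396 in miR-205 KO. The 3 groups did not overlap, and miR-205 KO was the lowest. It fell by 1.42 on the log2 scale in lncKO (SE 0.29, 2.67-fold, limma, adjusted p = 0.00661) and fell by 1.93 in miR-205 KO (SE 0.29, 3.82-fold, 0.00120). Serpinb8, an inhibitor of the proprotein convertase furin, read 3735, 4349 and 4024 in wild type, 1568, 835 and 1876 in lncKO and 1588, 1583 and 1846 in miR-205 KO. The knockouts overlapped each other and lay wholly below wild type. The fall was 2.99-fold in lncKO (log2 difference -1.58 ± 0.28, 0.00315) and 2.42-fold in miR-205 KO (-1.27 ± 0.28, 0.00891). Both genes passed in both knockouts under each alternative setting tried and without any single array.

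Serpinb5 encodes maspin, a clade member of epithelia that does not inhibit proteases. It read 44705, 47421 and 49874 in wild type, 88719, 66550 and 79938 in lncKO and 81423, 92741 and 81975 in miR-205 KO. Each knockout array exceeded each wild-type array, and the knockouts overlapped. It rose by 0.72 ± 0.20 in lncKO (1.65-fold, limma, adjusted p = 0.0320) and by 0.85 ± 0.20 in miR-205 KO (1.80-fold, 0.0144). The lncKO call was lost without wild type 1, 2 or 3 or without lncKO 4 or 6 (0.0560 to 0.103), and quantile normalization ended both calls (0.53 with 0.110, and 0.62 with 0.0597), as did leaving out miR-205 KO 8 for that knockout (0.0552).

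The Serpinb1 genes are the mouse relatives of the human gene for the neutrophil elastase inhibitor, and Serpinb1b and Serpinb1c rose in miR-205 KO skin. Serpinb1a, the main mouse counterpart of that inhibitor, read 8512 to 19837 over the 9 skin arrays and gave log2 differences of 0.20 ± 0.29 and -0.01 ± 0.29 (limma, adjusted p = 0.686 and 0.992). Serpinb1b read 46, 18 and 39 in wild type, 85, 96 and 66 in lncKO and 111, 76 and 90 in miR-205 KO. Both knockouts lay above wild type. It rose by 1.35 ± 0.32 (0.0147) and by 1.52 ± 0.32 (0.00793), and the lncKO call was lost without lncKO 5 (0.0526). Serpinb1c read 68, 121 and 150 in wild type, 257, 139 and 232 in lncKO and 290, 256 and 341 in miR-205 KO. The miR-205 KO arrays lay above wild type, whereas lncKO 5 lay within its range. It rose by 1.45 ± 0.31 in miR-205 KO (0.00853), and the lncKO difference of 0.92 ± 0.31 missed the threshold (0.0663).

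The Serpinb9 genes are named after the granzyme B inhibitor Serpinb9, and of the 7 on the arrays only Serpinb9e passed in knockout skin. Serpinb9 read 291 to 599 in skin and differed by -0.36 ± 0.27 and -0.35 ± 0.27 from wild type (limma, adjusted p = 0.383 and 0.395). Serpinb9b read 26 to 53, with differences of -0.39 and -0.53 (0.332 and 0.175). Serpinb9c, Serpinb9d and Serpinb9g lay at or below 16 in all 18 arrays, and Serpinb9f at 9 to 19 in skin, none of them past the threshold. Serpinb9e was called although all its skin values were near background, at 12, 14 and 13 in wild type, 8, 8 and 8 in lncKO and 8, 8 and 9 in miR-205 KO. Its fitted differences were -0.70 ± 0.19 and -0.64 ± 0.19 (0.0293 and 0.0394). With values raised to a floor of 16 it had no difference at all (0.00, 1.00), and no fold is drawn from it. Its calls were also lost without most single arrays (0.0573 to 0.0878 in lncKO without any array but wild type 1, and 0.0509 to 0.114 in miR-205 KO without any array).

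**Figure D3:**
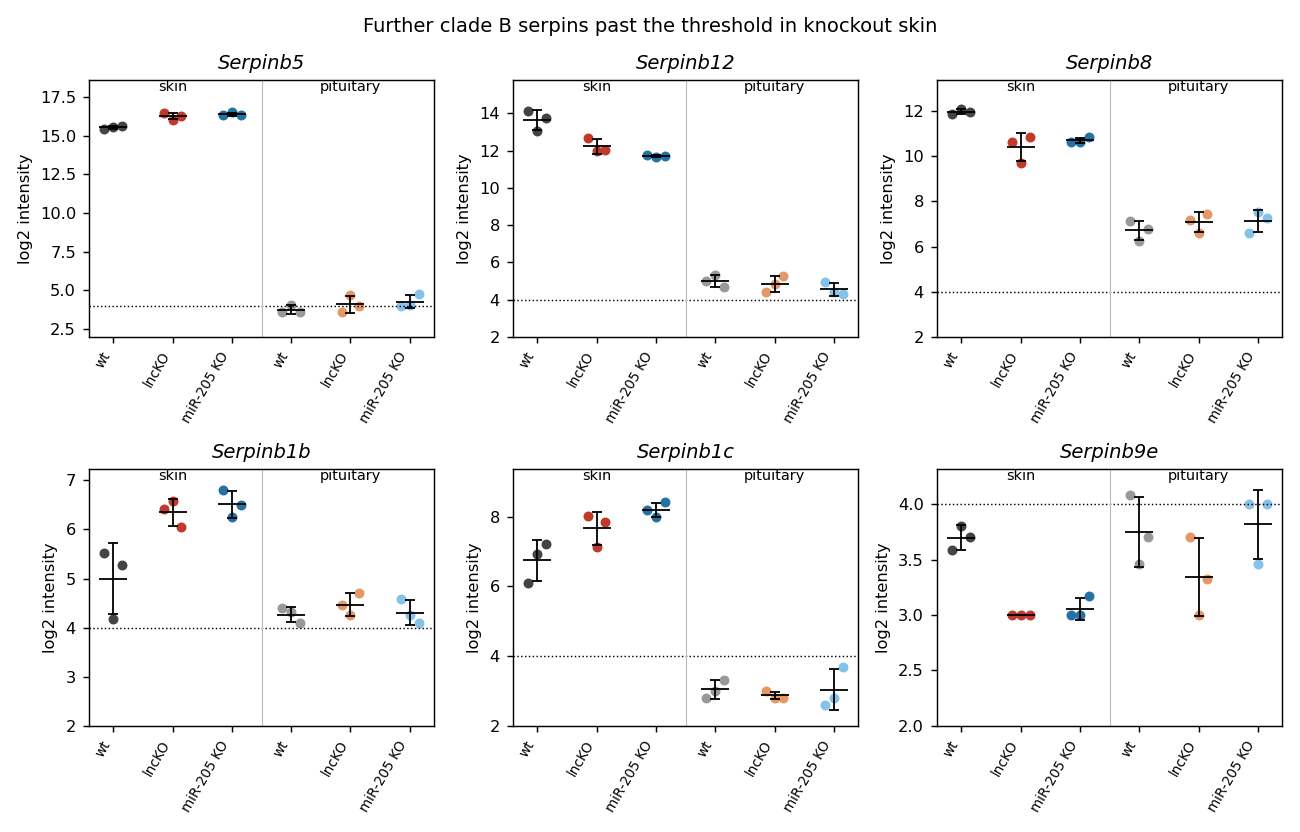
Log2 intensity by tissue and genotype of Serpinb5, Serpinb12, Serpinb8, Serpinb1b, Serpinb1c and Serpinb9e, which passed the threshold in at least 1 skin comparison. Points are arrays, bars are means with the SD (n = 3), the dotted line is log2 4, and each panel has its own scale. Serpinb12 and Serpinb8 sit lower in both knockouts of skin, Serpinb5 and Serpinb1b higher, and all skin arrays of Serpinb9e sit under the dotted line.

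The remaining members of chromosome 1 did not pass in knockout skin. Serpinb2, which encodes plasminogen activator inhibitor 2, read 48435 to 95426 in wild type, 66664 to 114625 in lncKO and 30151 to 55183 in miR-205 KO, with differences of 0.17 and -0.71 (limma, adjusted p = 0.758 and 0.146). Serpinb10, called bomapin, read 9863, 3890 and 8934 in wild type and 11986 to 18200 in miR-205 KO, with no overlap, yet its difference of 1.13 ± 0.46 missed the threshold (0.109). In lncKO it was 0.96 ± 0.46 (0.173), with 30066 in lncKO 4 and 7651 in lncKO 6. Serpinb13, an inhibitor of lysosomal cathepsins in keratinocytes, read 159 to 212 in wild type, 183 to 379 in lncKO and 214 to 337 in miR-205 KO, with differences of 0.63 and 0.65 (0.154 and 0.138). Serpinb7, called megsin, read 12662 to 21821 over all 9 arrays and differed by -0.10 and -0.03 (0.833 and 0.949). Serpinb11, Serpinb3a, Serpinb3c and Serpinb3d gave adjusted p-values of 0.175 to 0.972. The Serpinb3 genes are relatives of the human squamous cell carcinoma antigens.

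Set directly against each other, the knockouts did not differ in any member in skin by limma. No probe set at all was called, which is 0% higher and 0% lower, although 637 had an unadjusted p under 0.05. Among the members 2 did, both higher in lncKO: Serpinb2 by 0.89 (95% interval 0.19 to 1.58) and Serpinb3c by 0.70 (0.08 to 1.33), each with an adjusted p of 1.00. The interval for Serpinb12 was -0.10 to 1.13 and that for Serpinb1c was -1.22 to 0.14. Differences of those sizes between the knockouts are within what 3 arrays per group allow. Serpinb6d differed by 0.87 ± 0.42 (not tested), and by 0.47 without miR-205 KO 9, its lowest knockout array.

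In pituitary no member passed in any genotype comparison by limma. For lncKO against wild type, 0 of 26 were called, against 0.342% of all probe sets higher and 0.358% lower. Of all 19572 probe sets, 2447 had an unadjusted p under 0.05. The 2 members among them were Serpinb3c, at 75, 48 and 46 in wild type and 77, 111 and 92 in lncKO (0.75 ± 0.24, adjusted p = 0.213), and Serpinb3d, at 7 to 10 and 11 to 18 (0.64 ± 0.25, 0.321). For miR-205 KO against wild type, 0 of 26 were called, against 0.0409% and 0.0664% of all probe sets. An unadjusted p under 0.05 was found for 0 of 26 members and for 1462 of the 19572 probe sets. For lncKO against miR-205 KO, 0 were called, against 0.138% and 0.153%. Serpinb3c (0.70, 0.308) and Serpinb6d, given above, were among the 2182 of 19572 probe sets with an unadjusted p under 0.05 there.

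Most clade B serpins had more signal in wild-type skin than in wild-type pituitary, and Serpinb9 had the reverse pattern. Of the 25 members 16 were lower in pituitary, or 64%, and 2 were higher, or 8%, where 26.4% of all probe sets were lower and 25.7% higher. The median difference was -1.84, against -0.01 over all probe sets. The members furthest apart were Serpinb2 (-12.43 ± 0.30, limma, adjusted p = 4.62e-18), Serpinb5 (-11.78 ± 0.26, 7.00e-19), Serpinb7 (-10.20, 2.06e-17), Serpinb10 (-8.84, 7.99e-14) and Serpinb12 (-8.64, 4.90e-16). In pituitary Serpinb2, Serpinb5, Serpinb7 and Serpinb10 read 10 to 27 over all 9 arrays, with some arrays of each gene near background, so the size of these differences depends on how low values are treated. With a floor of 16 they were -12.12, -11.50, -10.00 and -8.72. Serpinb6d differed by -9.65 (not tested), or -9.45 with the floor.

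Serpinb9 read 494, 599 and 344 in wild-type skin and 4435, 4393 and 4447 in wild-type pituitary. The groups were far apart, and the pituitary arrays differed little from each other. It was 3.24 ± 0.24 higher in pituitary, or 9.48-fold (limma, adjusted p = 2.99e-10). In knockout pituitary it read 4198, 2810 and 3376 in lncKO and 4447, 5506 and 3576 in miR-205 KO. Cytotoxic lymphocytes, whose granzyme B it inhibits, had a summed marker intensity over 8 measured genes of 146 to 192 in pituitary and 256 to 436 in skin. Both sums were low for 8 genes, given that 16 or less per gene counts as near background. The part of such cells in the Serpinb9 values was not tested. Serpinb3c, at 28 to 33 in wild-type skin and 46 to 75 in pituitary, was the other member that was higher (0.83 ± 0.28, 0.0158), a call lost without wild type 3 (0.0524) or wild type 10 (0.103). The further lower members were Serpinb1a (-5.42), Serpinb8 (-5.25), Serpinb11, Serpinb13, Serpinb3a, Serpinb1c, Serpinb6c (-2.50), Serpinb6a (-1.84), Serpinb6e (-1.50), Serpinb3d and Serpinb1b. The call for Serpinb1b was lost without any of wild type 1, 3, 11 and 12 (0.0583 to 0.203), that for Serpinb3d without wild type 3 or 12 (0.0697 and 0.0831) and that for Serpinb6e without wild type 2 or 10 (0.0545 and 0.0702).

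**Figure D4:**
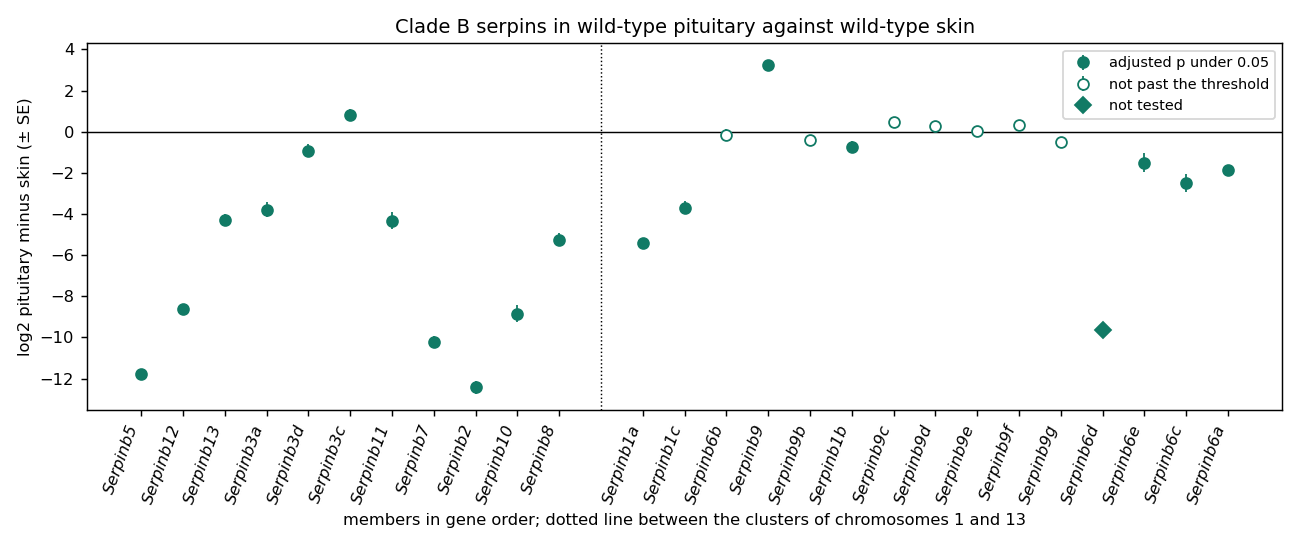
Log2 intensity in wild-type pituitary minus that in wild-type skin for each member in gene order, with the SE from limma (n = 3 per tissue), chromosome 1 left of the dotted line and chromosome 13 right of it. Filled circles passed an adjusted p of 0.05, open circles did not, and the diamond is Serpinb6d, which was not tested. Of the chromosome 1 members 10 of 11 were lower in pituitary, with Serpinb2 at -12.43, and Serpinb9 on chromosome 13 is at 3.24.

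The difference between a knockout effect in pituitary and its effect in skin passed for few members. For lncKO it passed for Serpinb8 alone (1.94 ± 0.43, limma, adjusted p = 0.00783), with 1 higher and 0 lower of 25 against 5.88% and 3.37% of all probe sets. For miR-205 KO it passed for Serpinb8 (1.68 ± 0.43, 0.0175), Serpinb12 (1.48 ± 0.40, 0.0241), Serpinb1b (-1.48 ± 0.39, 0.0224) and Serpinb1c (-1.46 ± 0.43, 0.0368), or 2 higher and 2 lower against 6.26% and 3.69%. Serpinb8 read 77 to 185 in pituitary, where its differences from wild type were 0.37 ± 0.30 and 0.41 ± 0.30. Serpinb12 read 20 to 40 there, Serpinb1b 17 to 26 and Serpinb1c 6 to 13, so for these 3 the pituitary side of the comparison had little signal. Each of the 4 miR-205 KO calls was lost without at least 1 array, as listed in the closing section.

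The measured genes around Serpinb6d on chromosome 13, in the order that leaves out genes without a named probe set, gave a mix of directions. The 11 members before it in the run reached from Serpinb1a to Serpinb9g, and the nearest named gene before the run was Wrnip1, a helicase interacting protein, at 201 to 352 in wild-type skin, 156 to 162 in lncKO and 127 to 149 in miR-205 KO. It fell in miR-205 KO (-0.87 ± 0.24, limma, adjusted p = 0.0259) and missed the threshold in lncKO (-0.64, 0.0885). After Serpinb6a the next named gene was Nqo2, a quinone reductase, at 415 to 470 in wild type, 831 to 1156 in lncKO and 864 to 1588 in miR-205 KO. It rose in both, by 1.08 ± 0.25 (0.0135) and 1.39 ± 0.25 (0.00370). Between Serpinb6d and Nqo2 the order of the differences in lncKO was 1.21, 1.60 and -0.79 for Serpinb6e, Serpinb6c and Serpinb6a, so neighbouring genes did not all move one way.

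The 5 named genes outside the clade whose log2 intensities followed Serpinb6d most closely over the 18 arrays were Cers5, Cyp3a57, AAdacl4fm3, Aadacl4 and Acsl5, with Pearson's r of 0.994 to 0.995. All 18 points share the gap between tissues, which sets most of that r. Within the 9 skin arrays r was 0.911 to 0.975, but these arrays still hold the genotype gap on which Serpinb6d was selected. Since the 5 genes were picked by their r, that r and the values below are descriptions and test nothing. Cers5 encodes a ceramide synthase and Acsl5 an acyl-CoA synthetase. Aadacl4 read 5363 to 8690 in wild-type skin, 26485 to 57175 in lncKO and 26868 to 34784 in miR-205 KO. Cyp3a57, a cytochrome P450 gene, read 287 to 567, 1285 to 1832 and 901 to 1713. Within the clade, r with Serpinb6d over the skin arrays was highest for Serpinb5 (0.883), Serpinb1b (0.877) and Serpinb6c (0.840) and lowest for Serpinb8 (-0.883) among members above 16 in all 9 skin arrays, as a description with no test. The gap between wild-type and knockout skin enters these r values too.

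Proteases that clade B serpins or their relatives can meet, together with the receptor gene Plaur, were given as a list of 24 genes, all measured. In lncKO skin 0 rose and 4 fell, where 6.21% of all probe sets were higher and 9.17% lower, and in miR-205 KO skin 1 rose and 3 fell, where 6.79% were higher and 10.0% lower. The median of the list was 0.07 in both, against -0.07 over all probe sets. The kallikrein Klk7, which cleaves the junctions of the outermost epidermis, read 72280 to 81006 in wild type, 24138 to 32235 in lncKO and 23957 to 27425 in miR-205 KO, with log2 differences of -1.44 and -1.56 (limma, adjusted p = 9.60e-04 and 6.01e-04). Klk5, which activates other kallikreins, fell in both (-1.63 ± 0.33 and -1.44 ± 0.33, 0.00626 and 0.0110). Prss8, the membrane protease prostasin, fell as well, at -1.07 and -1.12 (0.00872 and 0.00637). Plat, tissue plasminogen activator, fell in lncKO (-0.95, 0.0374), and Gzma, granzyme A, rose in miR-205 KO (1.09, 0.0154) from 11 to 21 in wild type to 25 to 34.

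Protease inhibitors outside the serpins moved in part. Of 11 measured genes 2 rose and 1 fell in each knockout, beside the same shares over all probe sets (6.21% and 9.17% in lncKO, 6.79% and 10.0% in miR-205 KO). Spink5, whose product LEKTI inhibits kallikreins, read 35057 to 38471 in wild type, 74266 to 138753 in lncKO and 106059 to 122324 in miR-205 KO, a rise of 1.42 ± 0.24 and 1.62 ± 0.24 (limma, adjusted p = 0.00267 and 0.00126). Cst6, cystatin M/E, rose by 0.82 and 0.92 (0.0300 and 0.0175), and Spint1, an inhibitor of membrane serine proteases, gave -0.74 and -0.79 (0.0356 and 0.0250). Among 29 serpins of other clades, Serpina9 alone passed in lncKO (-1.03 ± 0.25, 0.0170), at values of 6 to 18, or 0 higher and 1 lower of 29 beside those shares. In miR-205 KO Serpina11 and Serpinf2 rose (0.94 and 0.82, 0.0145 and 0.0337), and Serpina9 and Serpina12 fell (-1.03 and -0.70, 0.0161 and 0.0370), or 2 in each direction. In pituitary limma called 0 of these 64 genes in each genotype comparison, where 0.0409% to 0.358% of all probe sets were called in each direction. It gave an unadjusted p under 0.05 for 7 in lncKO against wild type, beside 2447 of all 19572 probe sets. For miR-205 KO against wild type there were 4, beside 1462, and between the knockouts 10, beside 2182.

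Summed markers of several skin compartments differed between the genotypes too, and such a sum can follow 1 strong gene. The summed intensity of 13 differentiated keratinocyte genes was 637484 to 766709 in wild-type skin, 928758 to 1134995 in lncKO and 1016693 to 1151131 in miR-205 KO. Krt10 alone read 314730 to 355555, 619688 to 678979 and 620055 to 753341 in these groups. The median log2 difference of the 13 genes was -0.32 in lncKO and -0.19 in miR-205 KO, against -0.07 over all probe sets. By single genes 2 rose and 4 fell in lncKO and 2 rose and 3 fell in miR-205 KO, where 6.21% and 9.17%, and 6.79% and 10.0%, of all probe sets were called higher and lower, and Klk7 stood in this list as well. The sum over 8 sebaceous gland genes was 817747 to 1055571, 1556501 to 1674886 and 1421310 to 1658503. By single genes 3 of these 8 rose and 0 fell in each knockout, beside the same shares over all probe sets. Their median log2 differences were 0.85 in lncKO and 0.62 in miR-205 KO. For 13 genes of hair shaft and root sheath the sum was 8178, 13154 and 453 in wild type 1 to 3, and 301 to 727 over the 6 knockout arrays. Of these 13 genes 0 rose and 4 fell in each knockout, beside those shares, with medians of -1.65 in lncKO and -1.75 in miR-205 KO. The sum over 8 basal keratinocyte genes was 267343 to 271096 in wild type and 268559 to 314968 in the knockouts. Mast cell genes (7 measured) summed to 38147 to 49940 in wild type and 56984 to 85406 in the knockouts. Most of that sum was Cpa3, at 30023 to 36516 in wild type, 47504 to 78820 in lncKO and 52720 to 68557 in miR-205 KO. Cpa3 was the only mast cell gene called in either knockout, and the list medians were 0.34 and 0.36. Neutrophil genes (8 measured, 3 near background in all skin arrays of each group) summed to 256 to 1387 in wild type and 381 to 1029 in the knockouts. Genes of macrophages and dendritic cells (7 measured) summed to 93938 to 134837 in wild type, 74837 to 88265 in lncKO and 81538 to 121601 in miR-205 KO. The lncKO sums thus lay below wild type, and those of miR-205 KO overlapped it. Of these genes only H2-Aa was called, lower in both knockouts (-1.50 and -0.91, limma, adjusted p = 0.00500 and 0.0453). The list medians were -0.15 and 0.13. The part of these shifts in the values of Serpinb6d and the other clade B serpins was not tested.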

How the data were processed

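The authors deposited 1 linear intensity per probe set and array, in whole numbers from 4 to 1243875. The sources used here name no software, background correction or normalization for them. Per the labels' protocols, RNA was taken up in Qiazol, purified with a miRNeasy kit and labelled as single-stranded cDNA, and the same text stands beside both tissues.

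Of 22206 probe sets, 19572 had exactly 1 gene symbol in the platform annotation and all of these matched RefSeq (GRCm38.p6). Array medians were 82 to 96, and no pair of arrays shared more than 5.49% of its values. The number of arrays limits the precision.

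Log2 intensities were fitted with limma 3.58.1 (R 4.3.3, lmFit and eBayes, two-sided), with 9 arrays per tissue fit and all 18 for comparisons across tissues. Benjamini-Hochberg adjustment covered the 19572 probe sets, at a threshold of 0.05. The scripts were tested on simulated data. Every adjusted p is from limma, errors beside differences are SEs with n = 3 arrays per group, and values beside means are SDs.

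The members, gene lists and tests were chosen with earlier results of these data known. Values in every array are given for Serpinb6d, its Serpinb6 paralogues and each member past the threshold in a genotype comparison. Up to 4 genes by smallest p were named per list of proteases, inhibitors and other serpins, together with the 5 genes most correlated with Serpinb6d and the flanking genes. Promoter windows were aligned with Biopython 1.88. The alternatives were quantile normalization, median centring, a floor at 16, a filter on mean log2 above 4, a variance trend with robust estimation, other sets of arrays in the fit and leaving out each array.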

Additional observations from a re-analysis of the deposited data

Results flagged for a closer look

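These 5 results of the clade differed between the tissues by the interaction test. The effect of lncKO on Serpinb8 was 1.94 higher on the log2 scale in pituitary than in skin. That of miR-205 KO was 1.68 higher for Serpinb8 and 1.48 higher for Serpinb12. For Serpinb1b and Serpinb1c it differed by -1.48 and -1.46. The Y-linked signal also differed between the tissues, and its part was not tested. In pituitary Serpinb8 read 77 to 185, Serpinb12 20 to 40, Serpinb1b 17 to 26 and Serpinb1c 6 to 13. No group held enough arrays for a test of outlying samples.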

How the results depend on the processing

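Serpinb12 and Serpinb8 passed in both knockouts of skin under all alternatives run. Serpinb1b and Serpinb1c did so in miR-205 KO. Single members were recomputed only where the main fit had called them, so no member could gain a call in this count. It pools all comparisons, among them the tissue comparison with 2 higher and 16 lower members. Of these values 377 stayed past the threshold, 72 lost it and none reversed. In lncKO skin 7 members passed, 3 with a floor at 16, 3 with only the groups compared in the fit, and 3 to 6 with an array left out (3 without wild type 2, 3 without lncKO 4, 4 without lncKO 6). The floor ended the calls of Serpinb1b (0.0701), Serpinb6c (0.130), Serpinb6a (0.0681) and Serpinb9e. Fitting only the groups compared ended those of Serpinb5 (0.0636), Serpinb6c (0.0665), Serpinb6a (0.0777) and Serpinb9e (0.0588), and median centring those of Serpinb6a (0.0831) and Serpinb9e (0.0580). Quantile normalization ended those of Serpinb5 (0.110) and Serpinb9e (0.0565), and in miR-205 KO those of Serpinb5 (0.0597) and Serpinb9e (0.0754), the latter lost with centring too (0.0761). In miR-205 KO skin 6 passed, and 10 with all 18 arrays in the fit. The lncKO interaction gave 1 member, 2 with quantile normalization, 2 with the variance trend, and 1 to 3 with an array left out. The miR-205 KO interaction gave 4, and 2 to 5 with an array left out. Of these calls, Serpinb12 was lost without arrays 1, 12 or 16 (0.0537 to 0.0672) and with median centring (0.0559), Serpinb8 without 11 or 17 (0.0522 and 0.0519), Serpinb1b without 7 or 18 (0.0621 and 0.0548), and Serpinb1c without 1, 7, 9, 11, 12, 16 or 17 (0.0631 to 0.0981). The median over members moved from -1.84 to -1.67 (quantile normalization) and -3.75 (filter on low values, which drops members near background) for the tissues, from -0.11 to -0.01 in miR-205 KO skin and from -0.12 to 0.00 in lncKO pituitary with the floor. For the lncKO interaction it was 0.01, and -0.11 with centring. For the miR-205 KO interaction it was 0.10, and 0.00 with quantile normalization or the floor and -0.05 with centring or the filter. With an array left out the medians ranged from -0.25 to 0.10 (lncKO skin), -0.24 to -0.12 (miR-205 KO skin), -0.09 to 0.05 (between the knockouts of skin), -0.13 to -0.02 (lncKO pituitary), -0.13 to 0.04 (between the knockouts of pituitary), -1.99 to -1.76 (tissues), -0.11 to 0.15 (lncKO interaction) and -0.09 to 0.26 (miR-205 KO interaction). The sign of the median changed under at least 1 setting in lncKO skin, in miR-205 KO pituitary (-0.03 to 0.06), between the knockouts of each tissue and for both interactions. Apart from what a setting removes, the cause of these shifts was not tested. A filter does not alter the mean level of Serpinb6d in a group, so no filtered level was computed. No paired analysis was possible because no replicate number recurs between groups.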
